A study of Mus musculus with 8 samples.

Results

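The genes described here are 40 cell cycle and proliferation genes, taken by symbol from a fixed list and read in the count files of 8 mouse livers. All 40 were found among the 56953 gene identifiers of each file, all had counts in every library, and all 40 passed the filter on low counts that left 15669 genes for testing. The livers came from adult male mice that had been fed for 8 weeks with CDHFD, a choline-deficient, fat-rich diet that leads to a fatty, inflamed and scarred liver. 4 were controls of wild-type (WT) genotype and 4 were HSC-PCK1-KO, in which Pck1, the gene of cytosolic phosphoenolpyruvate carboxykinase, was deleted in the hepatic stellate cells. These cells store vitamin A at rest and lay down scar collagen after injury. Neither the promoter that drove the deletion nor the engineered allele is named in the sources used here. The study's design text calls the 4 samples of a group biological replicates, and all libraries carry a single batch label.

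Cells divide in an ordered series of phases. Cyclin D and cyclin E with their kinases carry a cell from G1 into S phase, E2F factors switch on the genes of DNA synthesis, and the MCM helicase opens the DNA. Cyclins A and B with CDK1 then start mitosis, in which kinases, motor proteins and the anaphase-promoting complex part the chromosomes. Most hepatocytes of an adult liver rest outside the cycle, while injured fatty liver holds dividing hepatocytes, duct cells, macrophages and other cells. Whole-liver RNA adds all of these together, so fewer dividing cells and less RNA per dividing cell cannot be told apart.

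Totals ranged from 44695439 to 49477255 counts per library. Pck1 had 1002, 2012, 551 and 1028 CPM (the count scaled by the library's total and its TMM factor) in control replicates 1 to 4. It had 339, 795, 593 and 948 CPM in HSC-PCK1-KO replicates 1 to 4. These values overlapped, and hepatocytes express Pck1 strongly, so they do not check a deletion in stellate cells. All 8 hepatocyte markers were above 1 CPM, and together they made up 89764 to 111400 CPM of each library.

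No cell cycle gene passed the test between the genotypes, and most of them spanned over 2-fold between livers. Mki67, the gene of the Ki-67 antigen of dividing cells, had 4.73, 1.51, 2.47 and 5.07 CPM in control replicates 1 to 4. It had 2.06, 5.85, 3.62 and 2.38 CPM in HSC-PCK1-KO replicates 1 to 4. The group means were 3.45 ± 1.73 and 3.48 ± 1.72 CPM (SD, n = 4 each), and the log2 fold change was 0.01 (95% interval -1.0 to 1.02, edgeR adjusted p = 0.9998). The highest and lowest of the 8 livers were thus 3.88-fold apart in this gene, and each genotype spanned most of that range. The 95% interval still allows about a 2-fold difference between genotypes in either direction.

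**Figure D1:**
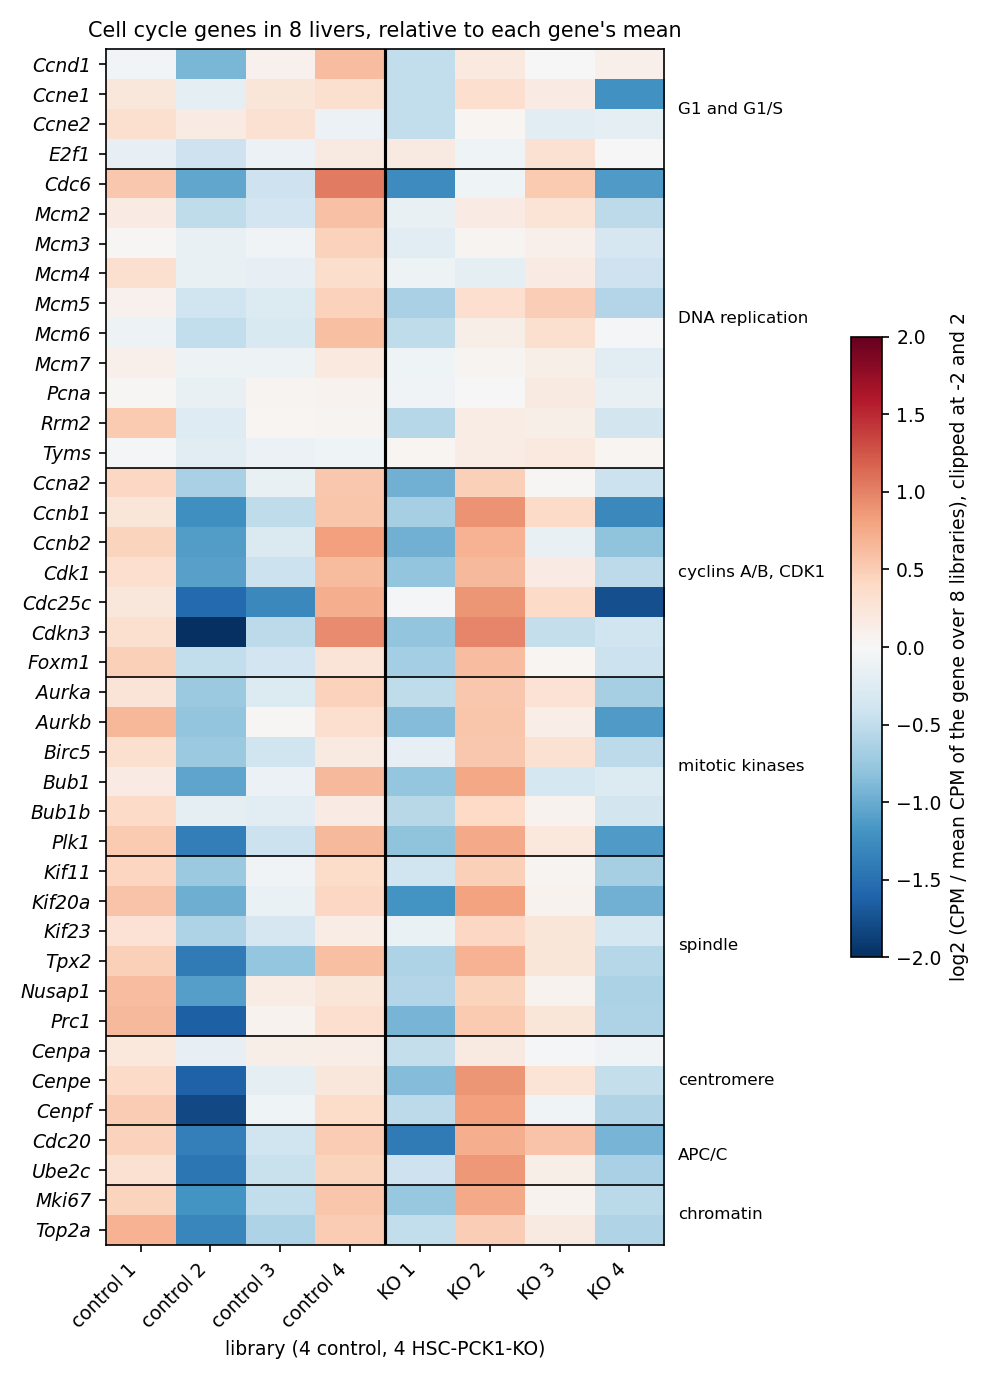
Heat map of the 40 genes (rows, grouped by role) in the 8 libraries (columns, control left and HSC-PCK1-KO, marked KO, right of the line), as log2 of CPM over the gene's mean, clipped at -2 and 2. Control replicate 2 and HSC-PCK1-KO replicates 1 and 4 are blue in most mitotic rows, and control replicates 1 and 4 and HSC-PCK1-KO replicate 2 are red.

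Among the G1 and G1/S regulators, Ccnd1, the gene of cyclin D1, which links growth signals to the cycle, had the highest CPM of all 40 genes. It had 36.2, 20.1, 39.9 and 57.6 CPM in control replicates 1 to 4 and 27.0, 43.2, 37.6 and 40.4 CPM in HSC-PCK1-KO replicates 1 to 4. Control replicates 2 and 4 marked its lowest and highest values, with all HSC-PCK1-KO livers between them. The log2 fold change was -0.05 (SE 0.30).
Ccne2, a cyclin E gene, had 1.95, 1.75, 1.92 and 1.44 CPM in control and 1.12, 1.61, 1.35 and 1.38 CPM in HSC-PCK1-KO livers. The groups overlapped through control replicate 4, and the log2 fold change was -0.37 (SE 0.18, unadjusted p = 0.06786, edgeR adjusted p = 0.9998). Ccne1, the other cyclin E gene, had 1.22, 0.920, 1.23 and 1.3 CPM in control and 0.737, 1.31, 1.16 and 0.447 CPM in HSC-PCK1-KO livers. HSC-PCK1-KO replicates 1 and 4 held its lowest values, and the log2 fold change was -0.35 (SE 0.31). E2f1, the factor that switches on S phase genes, had 4.32, 3.63, 4.50 and 5.48 CPM in control and 5.50, 4.59, 6.0 and 4.84 CPM in HSC-PCK1-KO livers. Its log2 fold change was 0.22 (SE 0.15), with control replicate 4 inside the range of the other group.

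Of the 10 replication genes, Tyms, which encodes thymidylate synthase, the maker of thymidine monophosphate, was the only 1 of the 40 genes in which the groups did not overlap. It had 7.53, 6.63, 7.16 and 7.31 CPM in control and 7.98, 8.57, 8.91 and 8.01 CPM in HSC-PCK1-KO livers. Every HSC-PCK1-KO liver was above every control liver, by a narrow margin at its lowest. The means were 7.16 ± 0.385 and 8.37 ± 0.455 CPM (SD, n = 4 each). The log2 fold change of 0.22 (SE 0.09) had an unadjusted p of 0.02806 and did not pass (edgeR adjusted p = 0.9998). Groups did not overlap in 1.53% of all tested genes, so 1 of 40 is near the background.

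Pcna, the sliding clamp of DNA polymerase, was the steadiest of the 40 genes. It had 27.2, 23.9, 27.7 and 28.1 CPM in control and 25.4, 27.0, 30.04 and 24 CPM in HSC-PCK1-KO livers. Its log2 fold change of -0.01 had a 95% interval from -0.20 to 0.18. Mcm7, a helicase subunit, was nearly as steady, between 13.5 and 17.8 CPM. The other 5 helicase subunits varied more. Mcm4 had 8.24, 5.92, 5.90 and 8.39 CPM in control and 6.12, 5.79, 7.33 and 4.92 CPM in HSC-PCK1-KO livers, with a log2 fold change of -0.24 (SE 0.16). Mcm2, Mcm3, Mcm5 and Mcm6 had log2 fold changes of -0.06, -0.17, -0.02 and 0.02, and in Mcm2, Mcm3 and Mcm6 control replicate 4 was the highest liver. Rrm2, a subunit of the enzyme that makes deoxynucleotides, had 9.27, 5.4, 6.62 and 6.66 CPM in control and 4.31, 7.16, 7.0 and 5.0 CPM in HSC-PCK1-KO livers. Control replicate 1 stood above the other 7 livers in it. Cdc6, which loads the helicase onto origins, had the log2 fold change farthest from 0, -0.54 with an SE of 0.51. It had 0.771, 0.259, 0.402 and 1.09 CPM in control and 0.223, 0.503, 0.769 and 0.244 CPM in HSC-PCK1-KO livers, which overlapped widely, on 10 to 57 counts per library.

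In 5 of the 7 genes of the late cyclins, their kinase and its regulators, control replicate 2 and HSC-PCK1-KO replicates 1 and 4 were the 3 lowest livers, in differing order. Ccna2, the gene of cyclin A2 of S and G2 phase, had 3.61, 1.72, 2.45 and 3.94 CPM in control and 1.39, 3.78, 2.74 and 2.01 CPM in HSC-PCK1-KO livers. Its log2 fold change was -0.24 (SE 0.34). Cdk1, the mitotic kinase itself, had 2.72, 1.01, 1.61 and 3.35 CPM in control and 1.251, 3.40, 2.43 and 1.5 CPM in HSC-PCK1-KO livers, with a log2 fold change of -0.02 (SE 0.41). In both genes control replicates 1 and 4 and HSC-PCK1-KO replicate 2 were the 3 highest. Ccnb1 and Ccnb2, the cyclin B partners of CDK1, ran from 0.569 to 2.59 CPM and from 0.802 to 3.06 CPM, with log2 fold changes of 0.15 (SE 0.51) and -0.29 (SE 0.47). Foxm1, a factor that drives mitotic genes, ran from 0.804 to 1.97 CPM, with a log2 fold change of -0.06 (SE 0.32). The phosphatase genes Cdc25c, which activates CDK1, and Cdkn3, which acts on CDKs, were the least counted here, with 3 counts each in their lowest library. Their intervals reached from -1.05 to 1.58 and from -1.63 to 1.63 and show little about genotype.

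The mitotic kinases and their partners had these 3 lowest livers in 3 of 6 genes. Birc5, the gene of survivin in the chromosomal passenger complex, had 2.46, 1.18, 1.5 and 2.24 CPM in control and 1.76, 2.86, 2.43 and 1.38 CPM in HSC-PCK1-KO livers, a log2 fold change of 0.19 (SE 0.29). Control replicate 2 was lowest and HSC-PCK1-KO replicate 2 highest. Plk1, polo-like kinase, had 1.85, 0.495, 0.951 and 2.01 CPM in control and 0.737, 2.17, 1.5 and 0.589 CPM in HSC-PCK1-KO livers, a log2 fold change of -0.09 (SE 0.51). Its lowest and highest livers were those of Birc5, 4.39-fold apart. Aurka and Aurkb, the Aurora kinases of spindle poles and of the passenger complex, had log2 fold changes of 0.01 and -0.31, and the checkpoint genes Bub1 and Bub1b had -0.08 and -0.12. Aurka, Bub1 and Bub1b were highest in HSC-PCK1-KO replicate 2, and Aurkb in control replicate 1, where it reached 1.68 CPM. Bub1b was the steadiest of the 6, between 0.938 and 1.83 CPM.

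Among the spindle genes 4 of 6 had the same 3 lowest livers. Kif20a, a motor of late mitosis, had 3.73, 1.27, 2.28 and 3.35 CPM in control and 1.09, 4.36, 2.64 and 1.28 CPM in HSC-PCK1-KO livers. HSC-PCK1-KO replicates 1 and 2 held both its ends, and the log2 fold change was -0.18 (SE 0.48). Kif11, the motor that pushes spindle poles apart, Kif23, a midzone motor, Tpx2, which activates Aurora A, and the microtubule bundlers Nusap1 and Prc1 had log2 fold changes from -0.21 for Nusap1 to 0.15 for Kif23. All 5 were lowest in control replicate 2. Kif11, Kif23 and Tpx2 were highest in HSC-PCK1-KO replicate 2, and Nusap1 and Prc1 in control replicate 1. Prc1 ran from 0.566 to 2.76 CPM and Kif23 only from 0.802 to 1.63 CPM.

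The centromere genes split in their spread. Cenpa, the histone of centromeres, had 7.51, 5.75, 7.02 and 7.10 CPM in control and 4.65, 7.30, 6.30 and 6.18 CPM in HSC-PCK1-KO livers, and all 8 lay within 1.62-fold. Cenpe and Cenpf, of the outer kinetochore, spanned 5.69-fold and 6.16-fold, on 9 counts each in their lowest library, control replicate 2. Cdc20, the activator of the anaphase-promoting complex, had 3.86, 1.08, 2.13 and 4.00 CPM in control and 1.05, 4.65, 4.18 and 1.46 CPM in HSC-PCK1-KO livers. In each genotype 2 livers were near 4 CPM or above, and the others were at 2.13 CPM or below. Ube2c, the complex's ubiquitin-conjugating enzyme, had 2.13, 0.637, 1.27 and 2.35 CPM in control and 1.3, 3.16, 1.87 and 1.10 CPM in HSC-PCK1-KO livers, a log2 fold change of 0.21 (SE 0.44). Top2a, the topoisomerase that untangles chromosomes, had 5.26, 1.32, 2.11 and 4.60 CPM in control and 2.30, 4.59, 3.68 and 2.13 CPM in HSC-PCK1-KO livers. Both of its extremes were controls, and the log2 fold change was -0.07 (SE 0.44).

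**Figure D2:**
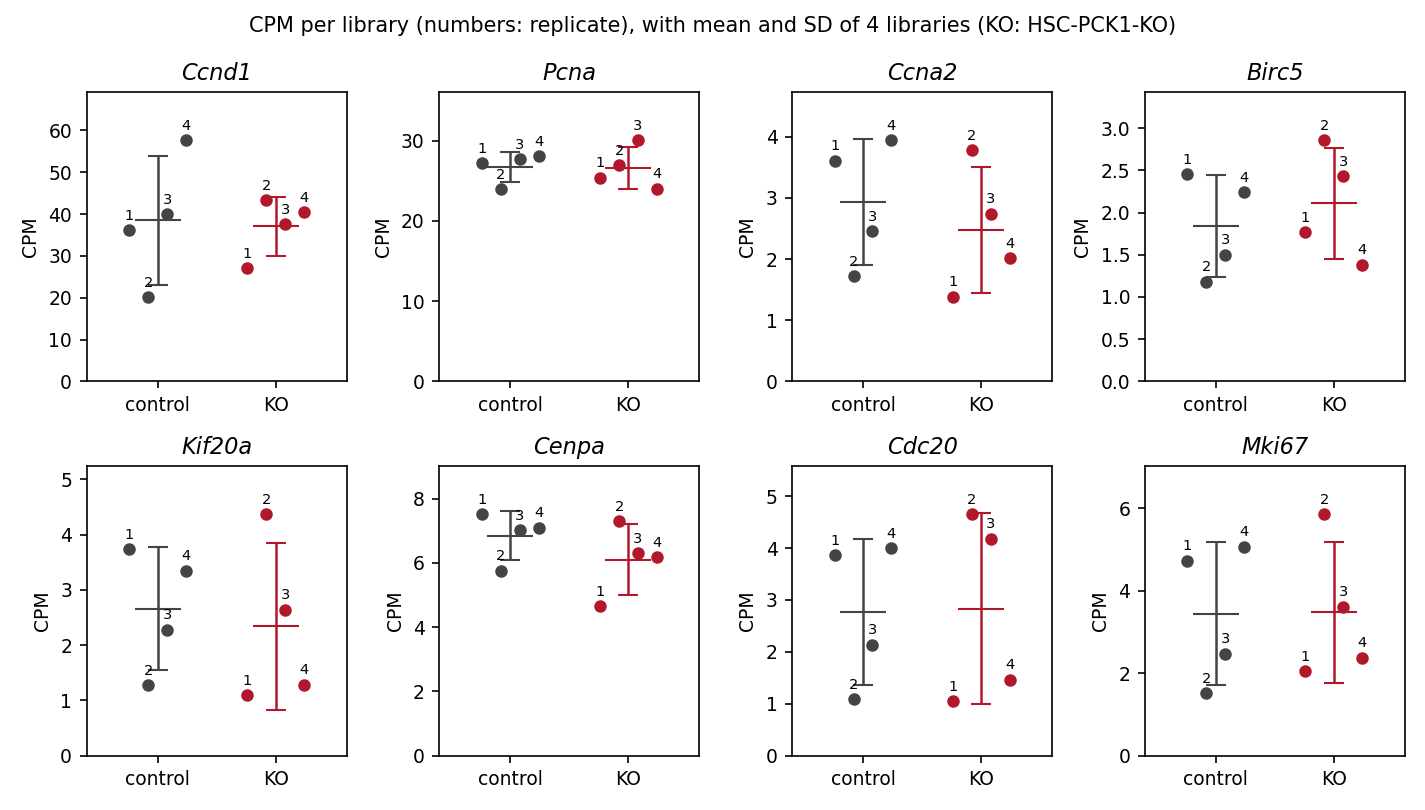
CPM (linear axes from 0) in each library for the gene with the highest mean CPM in each role, with replicate numbers beside the points, horizontal marks for group means and bars for SD (n = 4 per group; KO stands for HSC-PCK1-KO). The genotypes overlap in all 8 genes, and Pcna and Cenpa are tightly grouped while Kif20a, Cdc20 and Mki67 spread several-fold within each genotype.

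Per kilobase of exon, levels put Pcna first at 11.1 CPM per kb, then Ccnd1 at 8.02, Mcm7 at 3.52 and Rrm2 at 2.32 CPM per kb over the 8 livers. Mki67 stood at 0.344 and Top2a at 0.360 CPM per kb, next to each other and within each other's spread. Cenpf, with the longest exons, was near the bottom at 0.0481, above only Cdc25c at 0.0421 CPM per kb. Exon lengths came from GENCODE M21, so these levels are approximate.

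By edgeR's quasi-likelihood test 0 of 15669 tested genes (0%) passed an adjusted p of 0.05, and so 0 of the 40. DESeq2 called 6 genes and limma-voom 0, none of them a cell cycle gene of this list. At an unadjusted p under 0.05 edgeR had 370 genes (2.36%), 1.34% lower and 1.02% higher in HSC-PCK1-KO livers. Of the 40, 0 were lower and 1, Tyms, was higher at that p, near the background. The log2 fold change was negative in 25 of the 40 and positive in 15, against 51.8% negative over all tested genes, with a median of -0.06 against -0.01. All 8 groups by role held both signs except the 2 genes of the anaphase-promoting complex, which were both positive. The median of the 40 turned positive when any of 4 libraries was left out. It was 0.02 when control replicate 1 was left out, 0.18 when control replicate 4 was, and 0.08 or 0.05 when replicate 1 or replicate 4 of HSC-PCK1-KO was. It was -0.31 when HSC-PCK1-KO replicate 2 was left out, to -0.24 when control replicate 2 was, and to -0.13 when either replicate 3 was. Over the same alternatives the count of negative genes ran from 14 to 36 of 40.

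The precision differed by role. The median SE was 0.33 over the 40 genes and 0.13 over all tested genes. It was 0.19 for the 14 genes of G1, G1/S and replication and 0.44 for the 26 genes of G2, M phase and mitosis. The later genes also had fewer counts, and the sets were not matched for level, so role and level are not separated here. The 95% interval excluded a 2-fold rise for 30 genes, a 2-fold fall for 23, both for 20, and a 1.5-fold change in either direction for 6. For the other 20 genes the interval still held a 2-fold change in at least 1 direction.

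**Figure D3:**
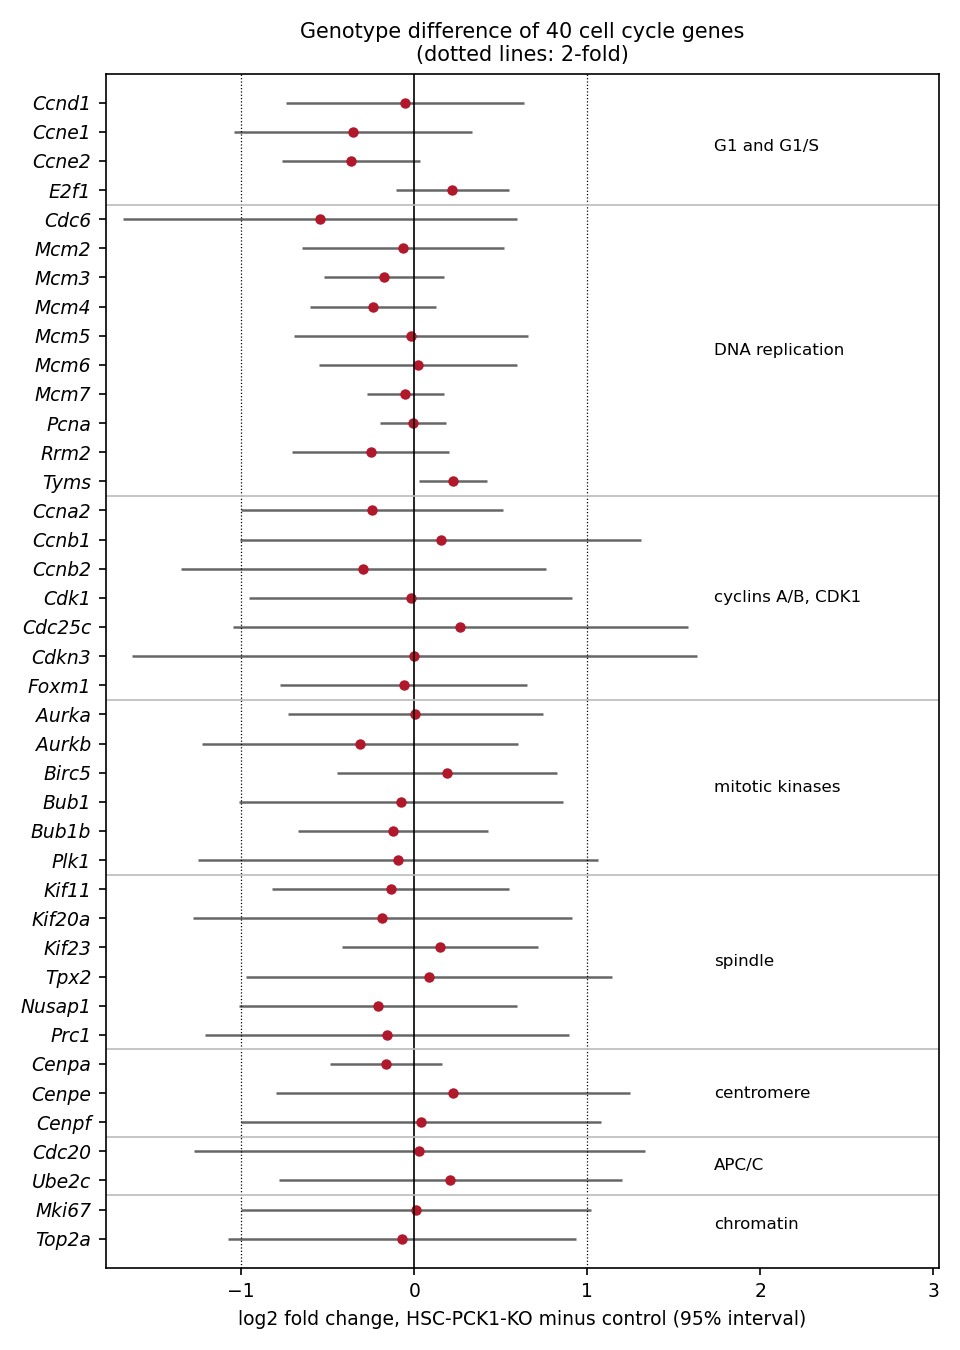
Log2 fold change (HSC-PCK1-KO minus control) of the 40 genes with 95% intervals from edgeR's quasi-likelihood fit, grouped by role, with dotted lines at a 2-fold change. All intervals but that of Tyms include 0, and those of G2 and mitosis genes are wider than those of Pcna, Mcm7 and Tyms.

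The spread between livers was larger for these genes than for most. The highest and lowest liver differed by over 2-fold in 31 of the 40 and by over 3-fold in 19, against 26.2% and 11.8% of all tested genes. The median coefficient of variation (CV) over the 8 livers was 35.6% against 12.8%. Low counts raise a CV, so genes were also set against others of like level. Between 1 and 3 mean CPM, the 20 members had a median CV of 40.4% and all 1917 genes 20.5%. At 3 to 10 CPM the 11 members had 24% and all 2811 genes 13.0%. Counting noise alone gives a median CV of 10.6% for the 40. The 26 genes of G2 and mitosis had a median CV of 45.1%, and 18 of them spanned over 3-fold. The 14 genes of G1, G1/S and replication had 21.6%, and 1 of them, Cdc6, spanned over 3-fold. These sets were not matched for level, and counting noise alone gives median CVs of 11.8% for the later set and 5.54% for the earlier. Ccnd1 was the exception at high level, with a CV of 29.5% at 37.8 CPM.

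**Figure D4:**
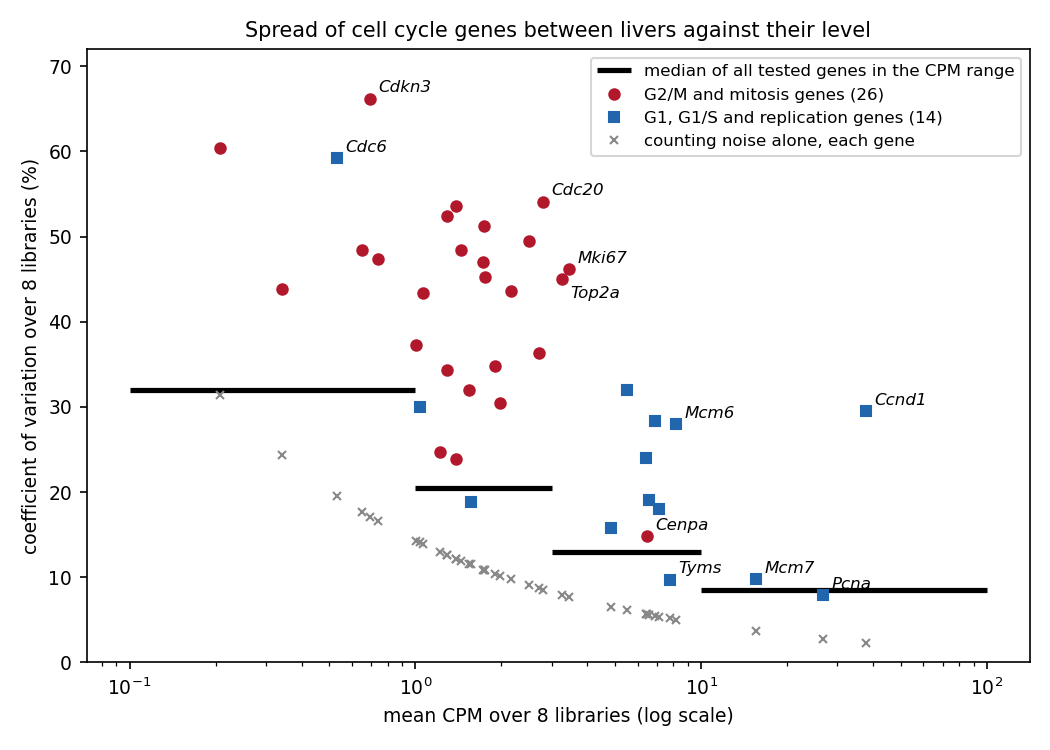
CV over the 8 libraries (percent, linear axis) against mean CPM (log axis) for the 40 genes, red circles for G2 and mitosis, blue squares for G1, G1/S and replication; black lines are medians of all tested genes in 4 ranges of CPM and crosses the CV that counting alone gives each gene. Most red circles lie well above the black lines, and Pcna, Mcm7 and Tyms lie near or under them.

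A few livers were often the lowest or the highest across the 40 genes. HSC-PCK1-KO replicate 2 was the highest liver in 20 of the 40 genes, control replicate 4 in 9, control replicate 1 in 7 and HSC-PCK1-KO replicate 3 in 4. Over all tested genes these livers were the highest in 9.48%, 15.4%, 9.88% and 11.6%, in that order. The 4 of 40 for HSC-PCK1-KO replicate 3 was thus near the background. Control replicate 2 was the lowest in 21 of the 40, HSC-PCK1-KO replicate 1 in 11 and HSC-PCK1-KO replicate 4 in 8. Over all tested genes they were the lowest in 16.9%, 15.1% and 14.8%, so 8 of 40 was not far above the background. These 3 libraries, picked after the values were seen, were the 3 lowest in 23 of the 40 genes and in 2.88% of all tested genes. Control replicate 2 was below control replicate 1 in 40 of 40 genes, and HSC-PCK1-KO replicate 4 below HSC-PCK1-KO replicate 2 in 39 of 40. The shares over all tested genes were 49.1% and 50.2%, and these pairs too were picked after the values were seen. The summed CPM of the 2 chromatin genes, Mki67 and Top2a, spanned 3.53-fold within the controls and 2.40-fold within HSC-PCK1-KO livers, while the group means differed by a factor of 0.983. For the 7 genes of cyclins A and B, CDK1 and its regulators the spans were 3.01-fold and 2.80-fold, with a factor of 0.936 between means. For the 10 replication genes they were 1.41-fold and 1.35-fold, with a factor of 0.968.

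The promoters were read for the elements the genes share. Cell cycle promoters are known for CCAAT boxes, which bind NF-Y, for the cell cycle homology region (CHR), at which the DREAM and MYB-MuvB complexes act in G2 and M phase genes, and for E2F sites of G1/S genes. The RefSeq table (GRCm38.p6) matched 31 of the 40 genes with 33 promoters, read here from 250 bases before the start site to 30 after it. On either strand, CCAAT was in 27 of 33 promoters and in 36.1% of all 32851 promoters. For a CHR, TTTGAA was in 14 and TTCGAA in 4, and at least 1 of these was in 17 of 33 promoters and in 18.4% of all. For E2F, TTGGCGC was in 6 promoters of the 33, the letters TTCGCGC were in 4, the letters TTCCCGC in 4 and the letters TTGCCGC in 1. Any of these was in 10 of 33 and in 8.90% of all. CCAAT and a CHR together were in 17 of 33 and in 6.92% of all, so every member promoter with a CHR also held CCAAT. A match is a description and not a shown binding site, and CCAAT can overlap TTGGCGC on the other strand.

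The 6 promoters below belong to the most abundant genes by CPM with both CCAAT and a CHR. Mcm7 and Cenpa were steady, Mcm2 spanned 2.15-fold, and Mki67, Top2a and Cdc20 swung more between livers. The genes were not picked by spread, and a link between these letters and spread was not tested. Capitals mark CCAAT, CHR and E2F letters on either strand. Positions are chr5:138171854-138172133 on the minus strand for Mcm7, chr6:88898751-88899030 on the minus strand for Mcm2, chr5:30666636-30666915 on the plus strand for Cenpa, chr7:135716350-135716629 on the minus strand for Mki67, chr11:99024160-99024439 on the minus strand for Top2a and chr4:118437314-118437593 on the minus strand for Cdc20. Each holds a start site of its gene, and for Mcm7, which has 2 in the table, the one with a CHR is shown.
Mcm7: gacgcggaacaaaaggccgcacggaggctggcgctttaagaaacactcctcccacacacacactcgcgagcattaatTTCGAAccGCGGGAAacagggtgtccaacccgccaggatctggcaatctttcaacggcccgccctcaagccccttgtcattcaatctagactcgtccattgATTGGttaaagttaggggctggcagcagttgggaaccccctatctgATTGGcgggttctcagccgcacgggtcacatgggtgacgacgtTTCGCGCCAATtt
Mcm2: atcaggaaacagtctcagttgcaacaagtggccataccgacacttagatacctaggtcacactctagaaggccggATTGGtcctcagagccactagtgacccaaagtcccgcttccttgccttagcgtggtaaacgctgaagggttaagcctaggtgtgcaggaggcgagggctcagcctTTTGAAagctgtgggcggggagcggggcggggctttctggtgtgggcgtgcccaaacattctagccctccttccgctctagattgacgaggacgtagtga
Cenpa: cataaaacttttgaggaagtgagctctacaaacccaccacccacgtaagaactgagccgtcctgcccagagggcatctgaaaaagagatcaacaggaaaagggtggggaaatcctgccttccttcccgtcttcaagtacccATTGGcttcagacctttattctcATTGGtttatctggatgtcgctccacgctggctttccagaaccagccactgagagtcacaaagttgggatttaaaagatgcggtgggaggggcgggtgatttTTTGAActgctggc
Mki67: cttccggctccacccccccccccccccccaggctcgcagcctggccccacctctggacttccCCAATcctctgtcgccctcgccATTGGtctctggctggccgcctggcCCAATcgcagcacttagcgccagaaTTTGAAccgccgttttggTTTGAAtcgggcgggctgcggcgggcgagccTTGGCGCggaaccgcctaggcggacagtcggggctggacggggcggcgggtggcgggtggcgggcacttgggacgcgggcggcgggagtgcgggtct
Top2a: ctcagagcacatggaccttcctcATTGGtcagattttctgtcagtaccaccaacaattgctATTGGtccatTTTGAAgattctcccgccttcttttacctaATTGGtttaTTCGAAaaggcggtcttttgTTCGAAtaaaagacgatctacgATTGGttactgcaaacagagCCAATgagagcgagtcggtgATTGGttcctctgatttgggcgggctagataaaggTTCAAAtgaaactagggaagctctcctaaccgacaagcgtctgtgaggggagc
Cdc20: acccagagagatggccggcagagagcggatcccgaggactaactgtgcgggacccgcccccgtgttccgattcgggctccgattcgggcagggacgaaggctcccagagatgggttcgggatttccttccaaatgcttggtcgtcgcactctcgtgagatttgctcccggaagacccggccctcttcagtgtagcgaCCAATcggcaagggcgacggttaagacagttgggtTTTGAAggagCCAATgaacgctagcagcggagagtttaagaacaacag
Top2a held the most, with 6 CCAAT boxes and 4 CHR matches, and Mki67 had 3 CCAAT boxes, 2 CHR matches and 1 E2F match. Mcm7 had 3 CCAAT boxes, 1 CHR match and 3 E2F matches in the promoter shown, and its other promoter had 1 CCAAT box, no CHR match and 1 E2F match. The level of Mcm7, over both start sites, spanned 1.32-fold. Tyms, Birc5, E2f1, Ccne1 and Nusap1 held none of the letters in this window, as did 47.4% of all promoters. For E2f1 the window is not a plain upstream region, since 188 of its 250 bases before the listed start site are coding sequence of E2f1 in GENCODE M21.

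The rest of the cell cycle machinery was read from 5 lists of 118 other genes, of which 112 were tested. None passed, and 0 of the 112 had an unadjusted p under 0.05, against 2.36% of all tested genes. 62 were positive and 50 negative, with a median log2 fold change of 0.01. Among CDK inhibitors and pocket proteins, the brakes on the G1/S step, 6 of 8 were positive. Cdkn1a, the gene of p21, had 13.3, 4.53, 9.38 and 18.5 CPM in control and 10.5, 15.2, 18 and 11.9 CPM in HSC-PCK1-KO livers. It was lowest in control replicate 2 and highest in control replicate 4, and its log2 fold change was 0.28 (SE 0.39). Cdkn2c, an inhibitor of CDK4 and CDK6, and Rbl1, a pocket protein that holds E2F, had 0.15 and -0.19. Among other cyclins and CDKs 12 of 16 were positive, with Cdk6, a partner of cyclin D, at 0.14 and Ccng2, an atypical cyclin of resting cells, at 0.25. Among E2F, DREAM and MYB-MuvB factors 12 of 15 were negative, with Mybl2, the MYB protein of that complex, at -0.56 (SE 0.30, unadjusted p = 0.09131) and Lin37, a DREAM subunit, at 0.19. Mybl2 was at 0.802 CPM in control replicate 2, its highest liver, where most mitotic genes were lowest.

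Of 31 other replication genes 16 were negative and 15 positive, with Pole, the leading-strand polymerase, at -0.32 (SE 0.17) and Rpa2, which coats single-stranded DNA, at 0.22 (SE 0.11). Of 42 other mitosis and cytokinesis genes 26 were positive and 16 negative, with the condensin genes Ncapd2 and Ncaph at -0.20 and -0.28. The median CV of these 42 was 34.7%, against 45.1% for the 26 late genes above, and 21 of them spanned over 3-fold. In 23 of the 42 the 3 lowest libraries were control replicate 2 and HSC-PCK1-KO replicates 1 and 4, against 2.88% of all tested genes. The same 3 were lowest in 8 of the 31 other replication genes and in 5 of the 10 replication genes among the 40. They were lowest in 0 of 8 inhibitors and pocket proteins, 1 of 16 other cyclins and CDKs and 1 of 15 E2F and DREAM factors. The inhibitors, the other cyclins and CDKs, the E2F and DREAM factors and the other replication genes had median CVs from 11.0% to 15.5%. The lists were not matched for level. All tested genes at 3 to 10 CPM and at 10 to 100 CPM had median CVs of 13.0% and 8.53%.

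Markers of other cells are given beside this pattern, and their part in it was not tested. The 6 duct cell markers summed to 28.6 to 138.2 CPM in control and 30.8 to 78.5 CPM in HSC-PCK1-KO livers, lowest in control replicate 2 and highest in control replicate 4. Spp1, which macrophages of injured liver also express, made up most of that sum, so the sum mainly shows Spp1. The duct keratin gene Krt19 was at 0.467 to 1.13 CPM, lowest in HSC-PCK1-KO replicate 4. Krt7, Epcam and Cftr were lowest in control replicate 2. Sox9, by contrast, was highest in control replicate 2 at 6.86 CPM and lowest in HSC-PCK1-KO replicate 1 at 2.90 CPM. Gpnmb, a gene of lipid-laden macrophages, had 2.98, 0.142, 2.83 and 16.8 CPM in control and 0.670, 9.03, 5.71 and 4.47 CPM in HSC-PCK1-KO livers. It shared its 2 lowest livers with Mki67, control replicate 2 and HSC-PCK1-KO replicate 1. HSC-PCK1-KO replicate 4, the next lowest for Mki67, was above control replicate 1 in Gpnmb. The 10 macrophage markers together ran otherwise, from 373.8 to 682.8 CPM in control and from 355.1 to 598.4 CPM in HSC-PCK1-KO livers, lowest in HSC-PCK1-KO replicate 2. Adgre1, Clec4f, Timd4, Csf1r and Cd5l of this list were each lowest in HSC-PCK1-KO replicate 2. Adgre1 and Timd4 were highest in HSC-PCK1-KO replicate 1, at 36.5 and 18.1 CPM. Cd68, Lyz2 and Itgax were lowest in control replicate 2, as Gpnmb was, and Trem2 in HSC-PCK1-KO replicate 1. The 8 stellate cell and myofibroblast markers summed to 304.6 to 437.7 CPM in control and 255.8 to 338.7 CPM in HSC-PCK1-KO livers, most of it from Dcn, which spanned 1.32-fold, Reln and Col3a1. Within that list Col1a1, the gene of the main scar collagen chain, had 28.0, 11.1, 17.96 and 42.5 CPM in control and 7.68, 21.9, 22.1 and 17.5 CPM in HSC-PCK1-KO livers. Its 3 lowest libraries were those of the 23 cell cycle genes, and Col3a1 was also lowest in HSC-PCK1-KO replicate 1 and control replicate 2. Des, Pdgfrb, Dcn and Reln were lowest in HSC-PCK1-KO replicate 1 too, but Reln was highest in control replicate 2 at 70.3 CPM. Lrat was lowest in control replicate 3 at 15.8 CPM. Acta2 was lowest in control replicate 2, while HSC-PCK1-KO replicate 1 was near its top at 4.24 CPM. The list thus did not follow the cell cycle genes as a whole. The 5 neutrophil markers summed to 2.90 CPM in control replicate 2 and to 10.8 CPM in control replicate 4, with 4.55 to 6.77 CPM in HSC-PCK1-KO livers. The 5 mesothelial markers summed to 3.30 to 9.52 CPM in control and 1.52 to 2.95 CPM in HSC-PCK1-KO livers, which did not overlap. The mesothelial genes Msln and Upk3b had log2 fold changes of -1.44 and -1.79 (unadjusted p = 0.002197 and 0.0007904, edgeR adjusted p = 0.9998 for both). Their groups did not overlap, which held in 1.53% of all tested genes. Lrrn4 and Wt1 had -2.30 and -0.67 with overlapping groups (edgeR unadjusted p = 0.004456 and 0.2392, adjusted p = 0.9998 for both). Krt14 was not tested. The 5 myeloid progenitor markers summed to at most 0.849 CPM in any liver, with 2 of the 5 counted in all libraries. No marker of the 11 lists was at 0 in all 8 libraries. The 8 T and NK cell markers reached at most 8.35 CPM and the 7 B and plasma cell markers at most 9.33 CPM in sum, the highest for both in HSC-PCK1-KO replicate 4, where most mitotic genes were low. Control replicate 2, the lowest liver for most of the 40 genes, also had the smallest total, 44695439 counts, while its scaling factor of 0.949 was above that of HSC-PCK1-KO replicate 1.

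Some of the values could hold reads of other genes. In GENCODE M21, exons of 11 of the 40 genes overlap a gene on the opposite strand, by over 10% of exon length in 7, among them Kif20a with Cdc23 (29.3%), Ccnd1 (23.4%) and Ube2c with Tnnc2 (22.8%). The libraries keep strand, but the sources used here do not say whether the counting used it. Ccnb1 shared 28.6% of its 100-base windows with other transcripts, mostly its pseudogenes, and Pcna 17.8%, so their levels are uncertain. Mki67, Top2a, Cdk1 and Aurka overlapped no exon on the opposite strand and shared no such window, and they spanned 3.88-fold, 3.98-fold, 3.35-fold and 2.43-fold between livers.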

How the data were processed

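Poly(A) RNA of 8 snap-frozen livers was sequenced as strand-specific paired-end reads of 100 bases, with an RNA integrity number of at least 8, per the labels' protocols. The authors deposited raw counts per gene, as whole numbers. The build was GRCm39 and R 4.3.2 was used, per the submitters' processing notes. The aligner, the counter and the strand setting were not given in the sources used here. A table of gene names gave symbols to 52029 of 56953 identifiers. Exon lengths and shared windows came from GENCODE M21 (GRCm38), another build than the files', so the only coordinates given are those of RefSeq promoters on GRCm38.p6. 1 symbol of the other lists, Lin54, was not matched.

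Counts were tested in R 4.3.3 with edgeR 4.0.16: filterByExpr kept 15669 of 28811 genes with a count, TMM scaling, a robust quasi-likelihood F-test of HSC-PCK1-KO minus control, and Benjamini-Hochberg adjustment over all tested genes at 0.05. Intervals use the SE and degrees of freedom of that test. Alternatives used DESeq2 1.42.0, limma 3.58.1 and sva 3.50.0. The steps were tested on simulated data. Pairs of libraries of a group differed by 49.7 to 188 in chi-square per degree of freedom, so none was a copy.

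The members and lists were chosen with earlier results of these data known. Named by rule were the member with the highest mean CPM in each role, the 6 with the smallest p, the 3 with the largest fold change, Cdkn1a and 2 genes of each other list with the smallest p. Promoters were printed for up to 6 members with CCAAT and a CHR, in order of mean CPM. Other genes given with values, Gpnmb, Spp1, Krt19, Col1a1, Msln and Upk3b among them, were chosen after their values were seen. Each sample title holds a further number beside the replicate number, which the labels do not explain. P-values reflect the spread between the deposited samples.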

Additional observations from a re-analysis of the deposited data

Results flagged for a closer look

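Of 140 groups of 4 livers checked, 2 held a liver far from the other 3, where chance gives about 7. Cdkn3 stood at 1.37 CPM in HSC-PCK1-KO replicate 2 and at 0.402 to 0.528 CPM in the other HSC-PCK1-KO livers, on 18 to 68 counts. That replicate was the highest liver in 20 of the 40 cell cycle genes, Cdkn3 among them, and in 9.48% of all tested genes. The 6 erythroid markers summed to 277.1 CPM in control replicate 2 and to 188.9 to 194.2 CPM in the other controls.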

How the results depend on the processing

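No member was called by any of the alternatives, which were scaling by RLE or by upper quartile, DESeq2, testing without a filter, keeping genes at 1 CPM or more in 4 libraries, limma-voom, the replicate block, 1 surrogate variable, an adjusted p of 0.1 and leaving out each library. Over all genes, DESeq2 called 6 in place of 0, and leaving out single libraries gave 0 to 1. The count of members at an unadjusted p under 0.05, 1 in the main analysis, was 0 without a filter, 0 with the replicate block and 0 to 3 without single libraries. The count of negative members, 25, ran from 14 to 36 without single libraries. The median of -0.057 was 0.0214 with limma-voom and ran from -0.308 to 0.178 without single libraries. Of the 40 members, 13 kept their sign in all of the 16 alternatives that tested them, 9 negative and 4 positive, Tyms among them. The 1 CPM filter tested 34 members. Kif20a was at -0.67 without HSC-PCK1-KO replicate 2 and Mcm6 at 0.30 without control replicate 4, neither called. The replicate numbers showed no pairing of the libraries. Deviations of same-numbered libraries correlated by -0.329 to 0.0576, and none correlated best with its own number. With 4 libraries per group this cannot exclude a weak pairing, and the labels give none beyond a running number. The replicate block left all genes called at 0. RLE factors and plain library totals left the median span of the members within 1.5 times of 2.90-fold. Depth limits Cdc25c, Cdkn3, Bub1, Cenpe and Cenpf most, with under 10 counts in their lowest library.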
